A study of Mus musculus with 4 samples.

Results

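The cells compared here were the sympathetic neurons and the nodose sensory neurons recovered together from the mouse vagal ganglion complex. They were chosen by the authors' deposited cluster names, the cluster named Sympathetic against the 18 clusters whose names start with NG, within the 2 libraries made without cell sorting. This gave 19 sympathetic and 913 nodose neurons, 932 of the 1825 cells in the tables. Both unsorted libraries, called library 1 and library 2 below, came from wild-type C57BL6 mice aged 5 weeks and held every cell of the dissociated ganglia that passed the authors' filters. Library 1 held 11 sympathetic and 188 nodose neurons, and library 2 held 8 and 725. The 2 other libraries came from mice of the same age in which Cre, driven from the Slc17a6 locus (Slc17a6tm2(cre)Lowl), switched on the reporter allele Gt(ROSA)26Sortm14(CAG-tdTomato)Hze on a B6.Cg background, and their tdTomato cells were sorted. The labels name the tissue as jugular and nodose ganglia, and the number of animals behind each library is not among them.

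Sympathetic neurons are the noradrenergic output cells of the autonomic nervous system. They arise from the neural crest, make noradrenaline from tyrosine through Th, Ddc and Dbh, load it into vesicles with Slc18a2 and take it back up with Slc6a2, and many release neuropeptide Y with it. Nodose neurons are placode-derived sensory cells that carry signals from the heart, lungs and gut to the brainstem and release glutamate. The superior cervical ganglion lies beside the nodose ganglion in the neck, and how the sympathetic cells came into the suspension was not tested. The authors drew the clusters from the same transcripts, so the tests below are not independent evidence that the classes differ.

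Before the values, the DNA in front of the RefSeq starts of 2 genes that carry the result is shown. Both stretches hold motifs known for control of noradrenergic genes. The first is a stretch of 231 bases upstream of Th, chr7:142900015-142900245, minus strand, which stops short of the RefSeq start. Capitals mark TGACGTCA, the cyclic AMP response element, whose first base lies 45 bases before that start. The second is a stretch of 30 bases in front of the RefSeq start of Dbh, chr2:27165342-27165371, plus strand. Its capitals mark a pair of ATTA cores, the core bound by many homeodomain factors, 157 bases before that start. Both are RefSeq sequences of build GRCm38.p6, printed 5′ to 3′. Both lie inside the gene intervals of GENCODE M21, the source of the gene positions below, which start further upstream.
Th upstream: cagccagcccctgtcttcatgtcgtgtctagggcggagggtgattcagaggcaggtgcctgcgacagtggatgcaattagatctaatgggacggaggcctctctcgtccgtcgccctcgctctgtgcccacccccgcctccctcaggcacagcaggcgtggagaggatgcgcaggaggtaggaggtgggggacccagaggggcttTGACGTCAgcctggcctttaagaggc
Dbh pair: catgtgtcATTAgtgccaATTAggggagat
The letters TGACGTCA were found on either strand in the 250 bases upstream of 1.55% of 32851 RefSeq mouse promoters, and a pair of ATTA with 6 bases between them in 0.761%. RefSeq promoters were matched for 13 of 17 sympathetic genes looked up. Of these 13, TGACGTCA was found at Th alone and the ATTA pair at Dbh alone. GATAAG, a motif of zinc finger factors such as Gata2, was found at Phox2a alone (6.55% of all promoters), and CATCTG, an E-box, at Hand2 alone (14.4% of all promoters). A match is a stretch of letters and not a measured binding site.

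The libraries were counted in unique molecular identifiers (UMIs), 1 for each captured transcript. UMIs were summed per library and class, which gave 4 profiles. The sympathetic profiles held 696452 and 329976 UMIs and the nodose profiles 12889182 and 25315085, in the order library 1 and library 2 used throughout. A single UMI is therefore worth 0.0144 and 0.0303 per 10000 in the sympathetic profiles, which sets how low a level could be seen. Median UMIs per cell were 55453 and 42793.5 in sympathetic and 69106.5 and 34640 in nodose neurons. The median mitochondrial share was 5.91% and 6.12% in sympathetic and 7.91% and 7.60% in nodose neurons. Of the cell barcodes, 1 occurred in more than 1 library, and no sympathetic barcode did.

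The name of the cluster was checked against Dbh, Th, Npy and Hand2. Their summed level was between 24.2 and 173 UMIs per 10000 in each of the 19 sympathetic cells, with a median of 65.3. In nodose cells it ran from 0 to 7.50, with a median of 0.309, so the ranges did not overlap. The nodose markers P2rx2, Hoxb5, Slc17a6 and P2rx3 were each lower in sympathetic neurons (values below). Pnmt, the adrenaline-making enzyme of chromaffin cells, had 0 UMIs in the sympathetic cells, as did Chat and Vip, which mark cholinergic neurons. Of 6 endothelial markers 4 were at 0 (Cldn5, Cdh5, Emcn and Ly6c1), and the list summed to 0.0574 and 0.0303 against 0.553 and 0.507 in nodose neurons. The lists for fibroblast and mural cells and for immune cells summed to at most 0.182 and 0.0431 per 10000 in the sympathetic profiles.

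Satellite glia wrap both kinds of neuron, and their 7 markers, led by Apoe, summed to 12.2 and 11.8 per 10000 in the sympathetic and 22.03 and 22.37 in the nodose profiles. Per cell the sum ran from 0.175 to 265 in sympathetic neurons. It was above 50 in 3 of the 19 sympathetic cells (15.8%) and in 195 of 913 nodose cells (21.4%). Values without these cells, an alternative chosen after the data were seen, are given where they change a call. Schwann cell markers summed to 5.40 and 4.42 in sympathetic and 3.61 and 3.65 in nodose neurons. None of the 3 Schwann cell markers tested was called. Markers of chromaffin and glomus cells summed to 1.01 and 1.36 against 0.757 and 0.728, those of jugular neurons to 0.101 and 0.0606 against 0.738 and 0.787, and those of cholinergic neurons to 0.115 and 0.242 against 3.51 and 3.39. The part of other cells' transcripts in the differences below was not tested beyond leaving out the cells rich in glial markers.

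Sympathetic neurons were 4.72% of the neurons of library 1 (11 of 233, exact Clopper-Pearson 95% interval 2.38 to 8.29) and 0.921% of those of library 2 (8 of 869, 0.398 to 1.81). The 2 intervals do not overlap. In the sorted libraries there were 0 of 324 and 0 of 297 neurons, which allows a share of up to 0.926% and 1.01%. The share of library 2 lies under both limits. The sort selected cells that had expressed Slc17a6, and the sympathetic cells carried almost none of it (below). Whether the sort kept sympathetic cells out was not tested. The intervals cover counting error only.

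Across all genes, 6709 reached 0.2 UMIs per 10000 in at least 2 of the 4 profiles and were tested with limma on log2(UMIs per 10000 + 0.1), with the library as a block. A gene is called higher or lower where the Benjamini-Hochberg adjusted p was under 0.05 and the log2 fold change at least 1 in size. Each fold change below is sympathetic over nodose on this scale, followed by its standard error (SE). Of the 6709 genes 327 were higher in sympathetic neurons (4.87%) and 641 lower (9.55%), 968 or 14.4% in all. These shares are the background for the counts of list members below. Levels of the 2 classes did not overlap over the libraries for 27.1% of genes in the higher and 38.7% in the lower direction. The median log2 fold change of all tested genes was -0.11. Centring on that median moved the share of higher genes among those called from 33.8% to 42.7%. With 2 libraries the fit left 1 residual degree of freedom, and limma took essentially the whole of its spread from the trend over other genes. The p-values and SEs therefore measure a spread shared among genes between these 2 libraries, which may be technical. A gene's own difference between the libraries does not enter its SE. For a gene with 0 to 3 UMIs in a class, the fitted fold change depends on the added 0.1 and is no bound. A gene under 0.2 per 10000 in both profiles of 1 class entered the test through the other class alone, so the filter fixed its direction. This holds for each such gene below, also where it is not repeated.

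**Figure D1:**
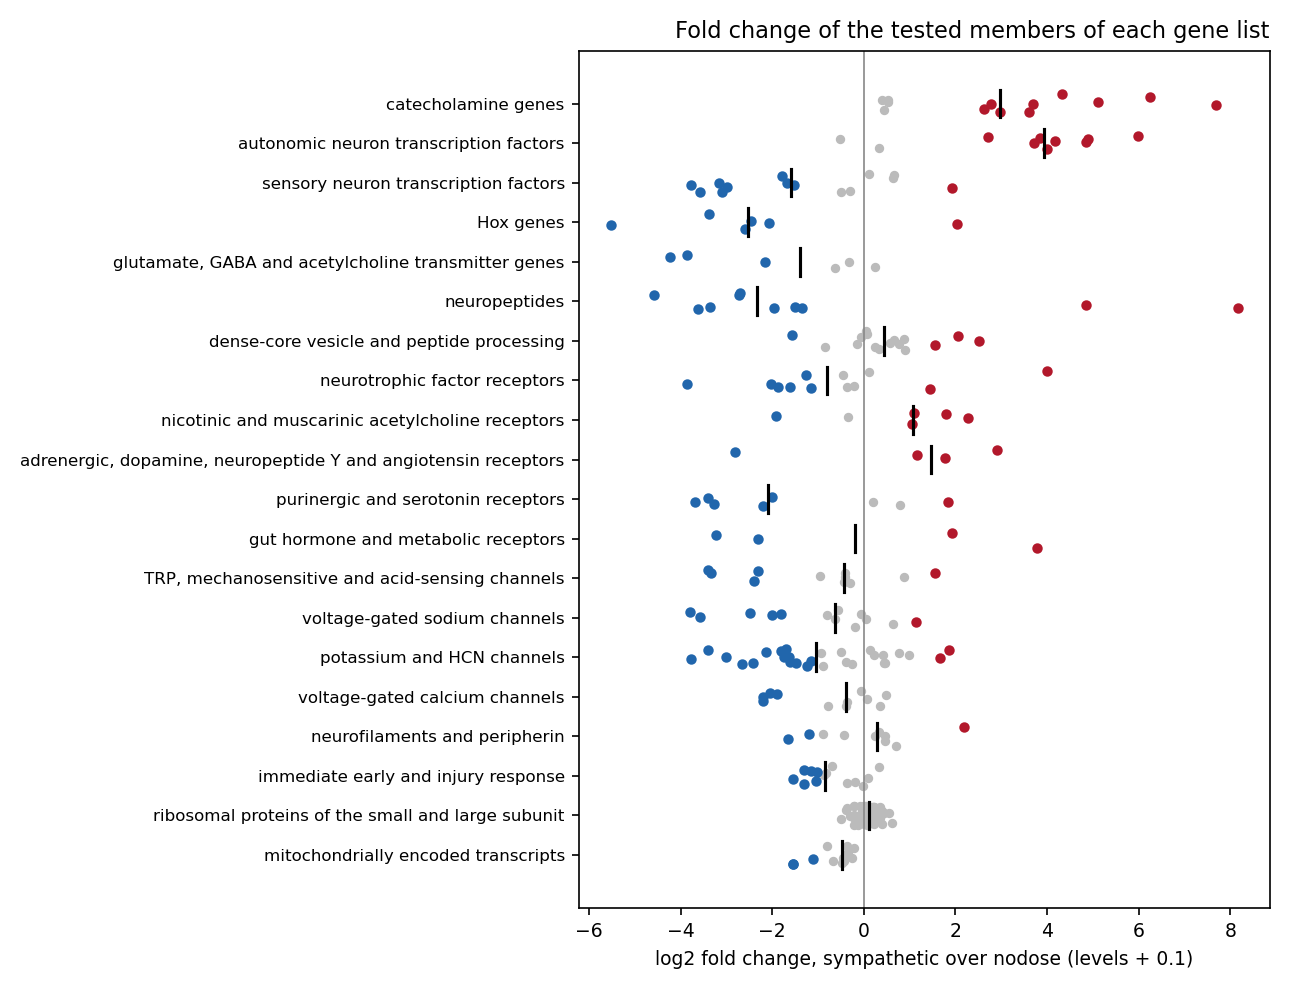
Log2 fold change of sympathetic over nodose neurons (horizontal axis, on levels + 0.1) for the tested members of 20 gene lists (rows). Red points are genes called higher, blue points genes called lower, grey points neither, and the black bar is the list's median, which lies at 2.98 for catecholamine genes, 3.92 for autonomic transcription factors and -2.52 for Hox genes.

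Genes of noradrenaline synthesis and transport were higher in sympathetic neurons. Of 17 catecholamine genes 13 were tested, 9 were higher in sympathetic neurons against 4.87% of all genes, and 0 were lower, with a median log2 fold change of 2.98 against -0.11 over all genes. All 9 kept their call under each of the 13 tested alternatives. Dbh, Slc6a2 and Slc18a2 were under 0.2 per 10000 in both nodose profiles, so the filter fixed their direction. Th, the rate-limiting enzyme that makes L-DOPA from tyrosine, was at 8.40 and 8.58 per 10000 in sympathetic and 0.562 and 0.574 in nodose neurons, a log2 fold change of 3.68 (SE 0.17). Libraries differed far less than classes for this gene. Ddc, which turns L-DOPA into dopamine, was at 3.47 and 5.24 against 0.431 and 0.477 (2.98, SE 0.19). Dbh, which turns dopamine into noradrenaline (chr2:27165233-27183200), was at 15.8 and 16.3 against 0.114 and 0.115, a ratio of 140 and a log2 fold change of 6.24 (SE 0.18). Both enzymes were higher in each library, and the step to noradrenaline differed more between the classes than the step to dopamine. Gch1, which makes the cofactor Th needs, was at 3.53 and 4.76 against 0.211 and 0.285 (3.60, SE 0.20). The other cofactor enzymes did not pass the fold threshold, with log2 fold changes of 0.40 for Qdpr, 0.54 for Pts and 0.43 for Spr. Cyb561, which passes electrons into the vesicle for Dbh, was at 12.4 and 8.24 against 0.459 and 0.361 (4.33, SE 0.17).

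Genes of transport and of amine breakdown were higher as well. Slc6a2, the noradrenaline transporter of the cell membrane (chr8:92960079-93001667), was at 29.2 and 31.8 per 10000 in sympathetic neurons and 0.0675 and 0.0316 in nodose neurons, a log2 fold change of 7.69 (SE 0.18). Slc18a2, the vesicular monoamine transporter, was at 5.57 and 5.73 against 0.0830 and 0.0498 (5.12, SE 0.20). For both transporters the lowest sympathetic profile lay far above the highest nodose profile. Maoa, a mitochondrial enzyme that degrades noradrenaline, was at 4.28 and 5.42 against 0.580 and 0.837 (2.62, SE 0.18). Maob, which degrades other amines, was at 2.48 and 3.70 against 0.313 and 0.411 (2.77). Both monoamine oxidases thus differed by more than the spread between libraries.

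**Figure D2:**
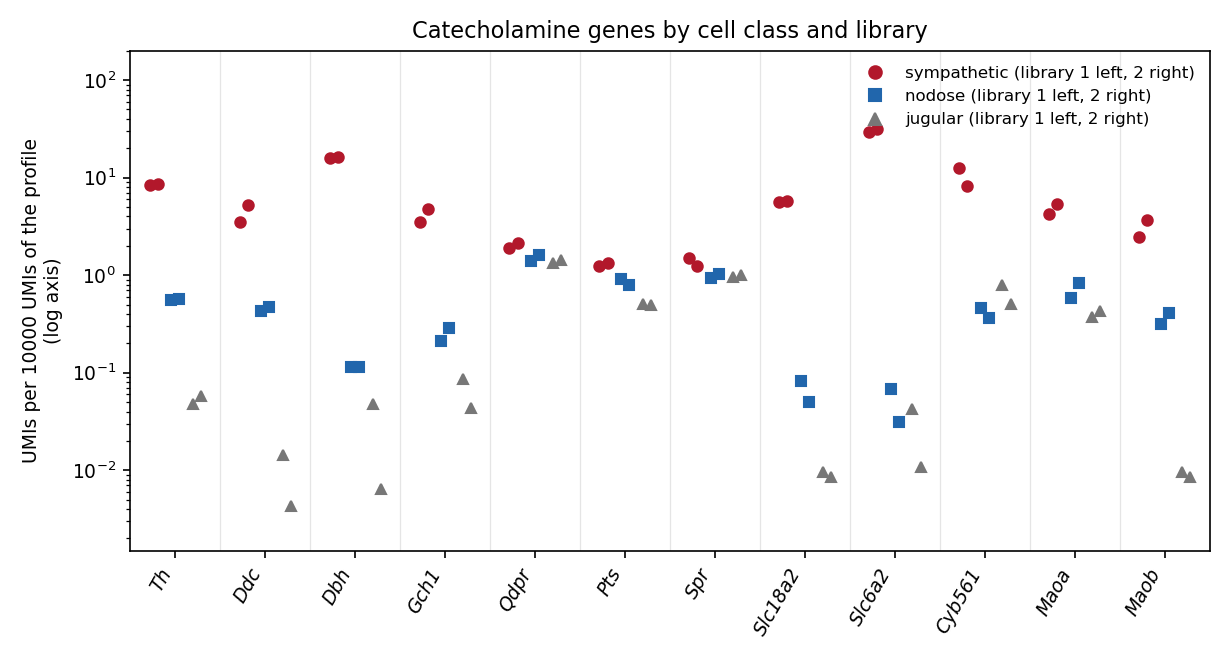
Levels of catecholamine genes in sympathetic (red circles), nodose (blue squares) and jugular neurons (grey triangles), 1 symbol for each library, in UMIs per 10000 UMIs on a log axis. For Th, Ddc, Dbh, Gch1, Slc18a2, Slc6a2, Cyb561, Maoa and Maob the red symbols stand above all others, while for Qdpr, Pts and Spr they lie close to the nodose symbols.

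The sympathetic cells carried these transcripts cell by cell. Dbh had UMIs in 19 of 19 sympathetic cells, from 6.33 to 81.8 per 10000 with a median of 13.6. Slc6a2 had them in 19 of 19, from 13.4 to 143 with a median of 26.5, and Th in 18 of 19, up to 18.8. In nodose neurons 16.2% of cells had a Dbh UMI (exact interval 13.9 to 18.8), against 0% of endothelial and 6.38% of glial cells, whose median depth was lower (9670 and 9684 against 37057 UMIs). After each cell was thinned to 10000 UMIs the nodose share was 7.36% and the sympathetic share still 100%. Among nodose clusters Dbh was highest in NG17 in the unsorted libraries, at 0.695 per 10000, and in NG18 in the sorted libraries, at 0.605. NG17 was at 0.308 in the sorted and NG18 at 0.0607 in the unsorted libraries. All these levels are far under those of any sympathetic cell.

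Th was more widespread among nodose neurons, where 51.7% of cells had a UMI, against 18.2% of jugular, 2.13% of glial and 3.92% of endothelial cells. Within the nodose clusters it was highest in NG6, at 3.81 per 10000 in the unsorted and 5.09 in the sorted libraries, followed by NG13 at 1.59 and 2.92. NG6 also had the highest nodose levels of Slc18a2 (0.934 and 0.740) and of Gata3 (1.30 and 1.23). Its Ddc was 2.04 and 3.47 per 10000, beside 2.62 and 2.82 in NG8. Slc6a2 stood at 1.23 in NG4 of the unsorted and 0.171 in NG4 of the sorted libraries. The nodose class mean of each gene therefore averages over clusters that differ, and NG6 holds 16 cells in the unsorted libraries.

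On levels with 0.1 added, neuropeptide Y had the largest fold change of the tested genes, while its plain ratio of 1190 was under those of Tbx20 (5658), Hand1 (1954) and Hand2 (1672), which had 2 to 15 nodose UMIs. Npy, a vasoconstrictor peptide stored with noradrenaline (chr6:49822710-49829507), was at 27.6 and 58.1 per 10000 in sympathetic neurons and at 0.0822 and 0.00553 in nodose neurons, a log2 fold change of 8.18 (SE 0.17). It was 7.25 in library 1 alone and 9.11 in library 2 alone. The nodose level of Npy in library 1 was like that of the other classes of that library, 0.0762 in jugular neurons, 0.0840 in satellite glia and 0.223 in endothelial cells. In library 2 it was 0.00216 in jugular neurons, and satellite glia and endothelial cells had 0 UMIs. A Npy UMI was found in 9.64% of nodose, 7.65% of jugular, 4.26% of glial and 7.84% of endothelial cells, which differ in depth. After thinning to 10000 UMIs these shares were 2.23%, 1.79%, 5.26% (of 19 cells) and 15% (of 20 cells). Whether nodose neurons express Npy was not tested. Nodose neurons of the sorted libraries, which held no sympathetic cell, had 0 Npy UMIs among 16188201 and 14635856.

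Gal, the peptide galanin, was the other peptide that was higher, at 11.2 and 18.9 per 10000 against 0.403 and 0.416 (4.84, SE 0.17). Among nodose clusters it was highest in NG7, at 4.64 in the unsorted and 9.10 in the sorted libraries. Of 25 neuropeptides 10 were tested, 2 were higher and 8 lower, with a median log2 fold change of -2.33 (-2.72 with the 2 members at 0 UMIs put at their bounds). Cartpt was at 0.101 and 0 against 3.02 and 3.64 (-4.59, SE 0.22), or -3.96 and -5.23 in the libraries taken alone, and Bdnf, a neurotrophin released by sensory neurons, at 0.0287 and 0.0303 against 1.49 and 1.48 (-3.61, SE 0.25). Vip had 0 UMIs in the sympathetic cells and 1.05 and 0.803 per 10000 in nodose neurons, at least 30.4-fold lower when set against a floor of 3 UMIs over both sympathetic profiles. Tac1, the precursor of substance P (-2.73), Adcyap1 (-2.71), Uts2b (-1.96), Calca (-1.51) and Nmb (-1.35) were also lower. With a pseudocount of 1, which shrinks the fold of low genes, 2 of these 8 kept their call.

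The 19 cells differed among themselves in their peptides. Npy ran from 0 to 153 per 10000 with a median of 17.1, was above 10 in 13 cells (7 of 11 in library 1 and 6 of 8 in library 2), and was under 1 in 4 cells. Gal ran from 0 to 40.6 and had a UMI in 16 cells. All 13 cells with Npy above 10 had Gal above 1. Across the 19 cells Spearman's rho between Npy and Gal was 0.87 (Pearson's r on log2 levels 0.75), and rho was 0.94 over the 16 cells without high glial markers. Between Npy and Dbh rho was -0.14 (0.04 over the 16 cells), between Npy and Slc6a2 -0.42 (-0.21), between Dbh and Th -0.20 (0.11), and between Dbh and Slc6a2 0.65 (0.49). These correlations describe cells of 2 libraries that share depth and preparation, and no test is attached to them.

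The cell with the fewest UMIs (12361, library 1) had a glial marker sum of 265, a mitochondrial share of 15.2% and no Th or Phox2a UMI, but 25.1 per 10000 of Npy and 48.5 of Dbh. A second cell of library 1, with a glial sum of 76.2 and a mitochondrial share of 19.4%, had the highest Dbh (81.8) and Slc6a2 (143) and no Npy. The third cell with many glial transcripts was in library 2, had a glial sum of 67.9, and had no Npy and 63.6 per 10000 of Slc6a2. These 3 cells hold the 3 highest Slc6a2 levels but 1 of them is among the 13 with high Npy. The part of glial transcripts in these levels was not tested.

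**Figure D3:**
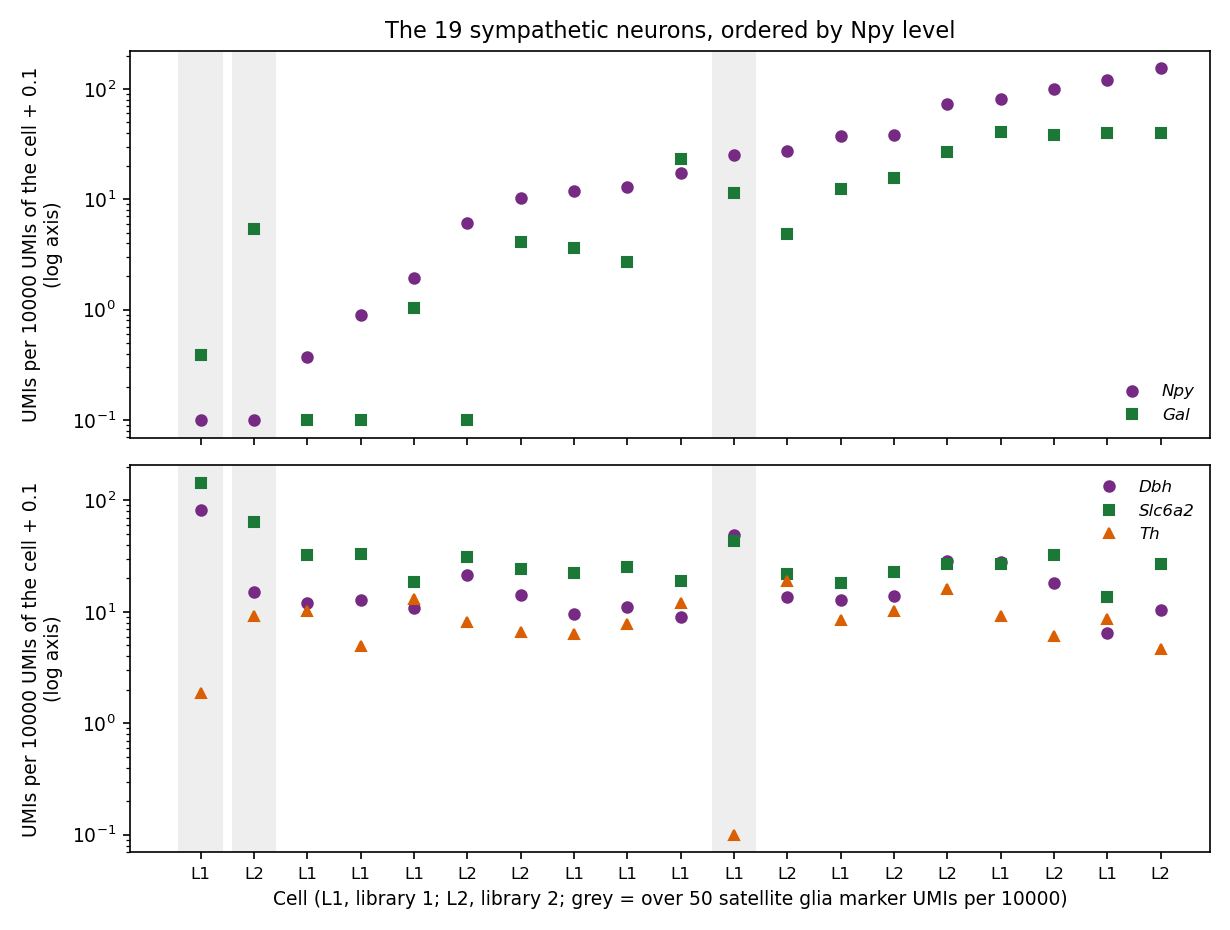
Levels in each of the 19 sympathetic neurons, ordered by Npy, in UMIs per 10000 UMIs of the cell + 0.1 on a log axis, with Npy and Gal above and Dbh, Slc6a2 and Th below. Npy runs from 0 to 153 with Gal between 0 and 40.6, while Dbh stays between 6.33 and 81.8, and grey bands mark the 3 cells with over 50 glial marker UMIs per 10000.

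Transcription factors of autonomic neurons were next. Of 13 autonomic factors 10 were tested, 8 were higher in sympathetic neurons against 4.87% of all genes, and 0 were lower. The median log2 fold change of the 10 was 3.92 (4.09 with Tfap2b at its bound). All of the 8 but Phox2a were under 0.2 per 10000 in both nodose profiles. The filter therefore fixed the direction of these genes. Hand2, a basic helix-loop-helix factor that maintains noradrenergic genes (chr8:57320983-57324633), was at 6.45 and 6.82 per 10000 against 0.0109 and 0.000395 (5.995, SE 0.21). Its relative Hand1 was at 3.39 and 2.39 against 0.00388 and 0.000395 (4.85, SE 0.24). Both were close to absent from nodose cells, of which 1.64% had a Hand2 UMI, a share like that of jugular (1.18%) and glial cells (2.13%). Gata2, a zinc finger factor of sympathetic development, was at 1.77 and 1.76 against 0.00466 and 0.00158 (4.17, SE 0.25). Gata3, its close relative, was at 0.761 and 0.606 against 0.0202 and 0.0186 (2.71, SE 0.25) and was the 1 factor of the 8 not called with a pseudocount of 1 (0.72). The nodose Gata3 UMIs came almost wholly from cluster NG6, which held 67 of 73.

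Phox2a, a paired homeodomain factor that specifies autonomic neurons, was at 5.84 and 3.27 per 10000 in sympathetic and 0.222 and 0.144 in nodose neurons (3.999, SE 0.20). Its lowest sympathetic profile lay far above its highest nodose profile. Tbx20, a T-box factor, was at 3.10 and 2.67 against 0.00155 and 0, which is 304 UMIs against 2 and a ratio of 5658 (exact interval 1553 to 46928). Tfap2b had 1.29 and 1.39 per 10000 in sympathetic neurons and 0 UMIs in both nodose profiles, at least 1687-fold higher, and 0 of 913 nodose cells had a UMI, which allows a share of cells with a UMI of up to 0.329% and sets no limit on cells with lower levels. Hmx1 was at 1.06 and 1.42 against 0.00233 and 0.000395 (3.72). Tfap2b and Hmx1 lie outside the rule for named genes and were picked after their values were seen. Sox11 was not called (0.34), and Insm1 was under the level needed for a test.

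The sensory factors went the other way. Of 32 genes 14 were tested, 8 were lower and 1 higher, with a median log2 fold change of -1.59, and 2 of the 8 kept their call with a pseudocount of 1. Etv1, an ETS factor of proprioceptive and visceral afferents, was at 0.115 and 0.303 against 3.27 and 4.78 (-3.78, SE 0.20). Pou4f1, the sensory factor Brn3a, had 1 sympathetic UMI against 0.885 and 0.871 per 10000 in nodose neurons, a ratio of 89.9 (exact interval 16.1 to 3553). Tlx3 (-3.15), Isl2 (-3.00), Runx1 (-1.79), Six4 (-1.67) and Tbx3 (-1.51) were also lower. Isl1, which sympathetic and sensory neurons are known to share, was at 1.81 and 1.94 against 2.56 and 2.81 (-0.50, SE 0.17; adjusted p = 0.0146 by limma) and did not reach the fold threshold. Tbx2 was the 1 higher member, at 0.431 and 0.697 against 0.0667 and 0.0774 (1.92, SE 0.25), and its call was lost with a pseudocount of 1.

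Hox genes record the position of a cell along the body axis. Of 52 genes, 21 of them measured, 6 were tested, with 5 Hoxb genes of chromosome 11 lower and Hoxc4 of chromosome 15 higher. The 5 Hoxb genes entered the test through the nodose profiles alone, and Hoxc4 through the sympathetic profiles alone. The filter therefore fixed the direction of all 6. The median log2 fold change was -2.52, or -2.99 with the 2 members at 0 UMIs put at their bounds. Hoxb5 (chr11:96303336-96306121) was at 0.0862 and 0 per 10000 in sympathetic and 6.32 and 6.06 in nodose neurons, a log2 fold change of -5.53 (SE 0.21). On levels with 0.1 added no other tested gene had a larger fold change in the lower direction, while its plain ratio of 105 was under those of BC048546 (190) and Scn10a (148), which had 1 sympathetic UMI each. Hoxb4 had 0 sympathetic UMIs against 0.837 and 1.04, at least 33.3-fold lower, and Hoxb2 had 0 against 0.374 and 0.271, at least 10.47-fold lower. Hoxb6 (-2.59) and Hoxb3 (-2.46), with 1 sympathetic UMI each, were lower as well. Hoxc4 was higher in sympathetic neurons, at 1.26 and 0.606 against 0.154 and 0.124 (2.04, SE 0.24). A Hoxc4 UMI was found in 15 of 19 sympathetic cells (78.9%), 29.7% of nodose cells, 1.18% of jugular cells and 0 of 47 glial cells. A Hoxb5 UMI was found in 6 of 19 sympathetic and 95.2% of nodose cells, and after thinning to 10000 UMIs in 0 of 19 and 92.4%. With a pseudocount of 1 the call of Hoxb5 alone remained among the 6.

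**Figure D4:**
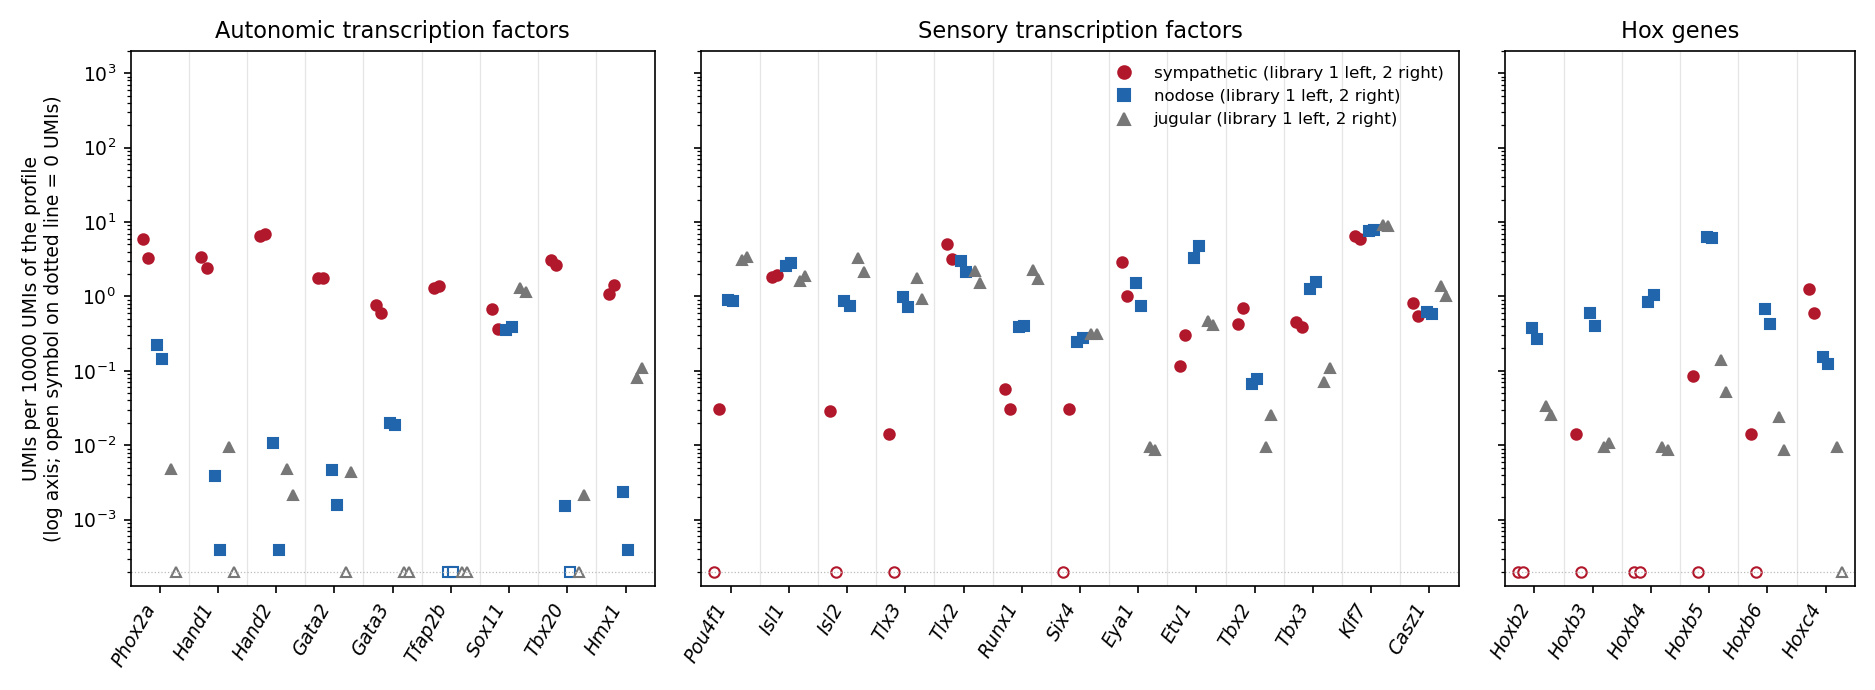
Levels of autonomic factors (left), sensory factors (middle) and Hox genes (right) in sympathetic (red circles), nodose (blue squares) and jugular neurons (grey triangles), 1 symbol for each library, in UMIs per 10000 UMIs on a log axis. Open symbols on the dotted line are profiles with 0 UMIs, as for Tfap2b in nodose and Hoxb2 and Hoxb4 in sympathetic neurons, while Isl1 lies close together in both classes.

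Transmitter genes of nodose neurons were lower in sympathetic neurons. Slc17a6, the vesicular glutamate transporter Vglut2 whose locus drives Cre in the sorted mice, was at 0.0718 and 0.0303 per 10000 against 2.48 and 2.97 (-4.23, SE 0.23). A Slc17a6 UMI was found in 5 of 19 sympathetic cells (26.3%, exact interval 9.15 to 51.2) and 98.7% of nodose cells. After thinning to 10000 UMIs it was found in 0 of 19 and 93.0%, while satellite glia, which do not release glutamate by this route, had a UMI in 4 of 47 cells (8.51%) unthinned and in 3 of the 19 cells deep enough to be thinned. Nos1, which makes nitric oxide, had 2 sympathetic UMIs against 1.46 and 1.63 per 10000 (-3.85, SE 0.25), and Slc5a7, the choline transporter, was at 0.0574 and 0.242 against 0.926 and 0.936 (-2.15, SE 0.24). Of the 14 transmitter genes 6 were tested and these 3 were lower. Glul and Ache were not called, with log2 fold changes of -0.33 and 0.23.

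Of 17 genes of the secretory granule 16 were tested, 3 were higher and 1 lower (against 4.87% and 9.55% of all genes), with a median log2 fold change of 0.45. Syt1, the calcium sensor of vesicle release, was at 17.5 and 22.6 per 10000 against 2.99 and 3.83 (2.52, SE 0.15). Chgb, a granin, was at 1.72 and 2.30 against 0.376 and 0.433 (2.06, SE 0.20), and Scg5, a chaperone of Pcsk2, at 5.92 and 2.91 against 1.33 and 1.38 (1.55, SE 0.17). Pcsk2, a convertase that cuts peptide precursors, was lower, at 0.747 and 1.06 against 2.08 and 3.88 (-1.57, SE 0.18). These 4 calls were kept in each of the 13 alternatives. Chga was at 0.617 and 1.12 against 0.526 and 0.465 and was not called.

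Receptors for neurotrophic factors differed in both directions. Ntrk2, the receptor for Bdnf, was at 0.187 and 0.273 against 4.33 and 4.96 (-3.86, SE 0.19), with 0.186 and 0.162 in jugular neurons. Its call was kept with a pseudocount of 1. Satellite glia also carry Ntrk2, with a UMI in 47 of 47 cells. Ntrk3 was higher, at 0.905 and 1.42 against 0.344 and 0.365 (1.45, SE 0.22), but was not called with a pseudocount of 0.5 (0.94) or 1 (0.67). Of 12 tested receptors of this list 2 were higher and 6 lower, the others lower being Gfra1 (-2.02), Il6st (-1.87), Lifr (-1.60), Gfra2 (-1.26) and Ret (-1.15), of which none kept its call with a pseudocount of 1. Ret, the receptor for GDNF family ligands, was at 1.31 and 1.15 against 2.87 and 2.84, and its call was also lost when cells were averaged instead of summed (-0.995) and when they were thinned (-0.995).

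Acetylcholine is the transmitter of preganglionic fibres. Of 18 genes for its receptors 6 were tested, 4 were higher and 1 lower, with a median log2 fold change of 1.07. Chrna3 and Chrnb4, subunits of the ganglionic nicotinic receptor whose genes are neighbours on chromosome 9, were at 4.12 and 3.58 against 1.74 and 1.76 (1.09, SE 0.17) and at 1.64 and 2.03 against 0.773 and 0.899 (1.04, SE 0.19). Without the cells rich in glial transcripts their log2 fold changes were 0.81 and 0.84 and neither was called. Chrnb4 was also not called without the cells of highest UMI totals (0.96). The muscarinic receptors Chrm2, at 0.359 and 0.727 against 0.0295 and 0.0257 (2.27, SE 0.26), and Chrm1, at 0.474 and 0.576 against 0.0659 and 0.0948 (1.79, SE 0.25), were also higher. Chrnb3 was lower, with 1 sympathetic UMI against 0.290 and 0.374 per 10000 (-1.91, SE 0.26). With a pseudocount of 0.5 or 1 none of the 5 was called.

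Of the receptors for noradrenaline, dopamine, neuropeptide Y and angiotensin 4 of 20 could be tested. Adra2a, the inhibitory autoreceptor of sympathetic neurons, was at 1.15 and 1.03 per 10000 against 0.0621 and 0.0561 (2.90, SE 0.25). Adra2c was at 0.416 and 0.3334 against 0.121 and 0.105 (1.15, SE 0.25), and Npy1r at 0.574 and 0.455 against 0.0892 and 0.0711 (1.76, SE 0.25). Npy2r went the other way, with 1 sympathetic UMI against 0.614 and 0.689 (-2.81, SE 0.26). These 3 higher and 1 lower receptors were each called, though none with a pseudocount of 1. Each was under 0.2 per 10000 in both profiles of 1 class, so the filter fixed its direction. The call of Adra2c was also lost without the filter on low levels.

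Receptors through which nodose neurons sense the viscera were mostly lower in sympathetic neurons. P2rx2, an ATP-gated channel of nodose neurons, was at 0.258 and 0.121 per 10000 against 3.89 and 3.15 (-3.68, SE 0.20), and its partner P2rx3 had 2 sympathetic UMIs against 0.349 and 0.357 (-2.00, SE 0.26). Of 8 purinergic and serotonin receptors tested 5 were lower, the others being Adora1 (-3.41), P2ry1 (-3.27) and Adora2a (-2.20). P2ry6 was the 1 that was higher, at 0.287 and 0.242 against 0.00310 and 0.000395 (1.84, SE 0.25). The serotonin-gated channel subunits Htr3a, at 9.85 and 4.39 against 5.39 and 6.06, and Htr3b, with a log2 fold change of 0.79, were not called. Cckar, the receptor for cholecystokinin from the gut, was at 0.546 and 0.242 against 3.89 and 4.79 (-3.23, SE 0.19), or -2.63 and -3.84 in the libraries taken alone, and the proton-sensing receptor Gpr65 had 1 sympathetic UMI against 0.313 and 0.670 (-2.31, SE 0.26). Adcyap1r1, the receptor for the peptide PACAP, was higher, at 1.49 and 1.30 against 0.0101 and 0.00751 (3.78, SE 0.25), as was Sctr, the secretin receptor, at 0.244 and 0.576 against 0.0279 and 0.0253 (1.93, SE 0.26). So 2 of the 4 tested gut hormone and metabolic receptors were higher and 2 lower. Sctr, Gpr65, P2ry6, P2rx3 and Adora2a lost their calls with a pseudocount of 0.5 or 1, and Adcyap1r1 and Cckar kept theirs.

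**Figure D5:**
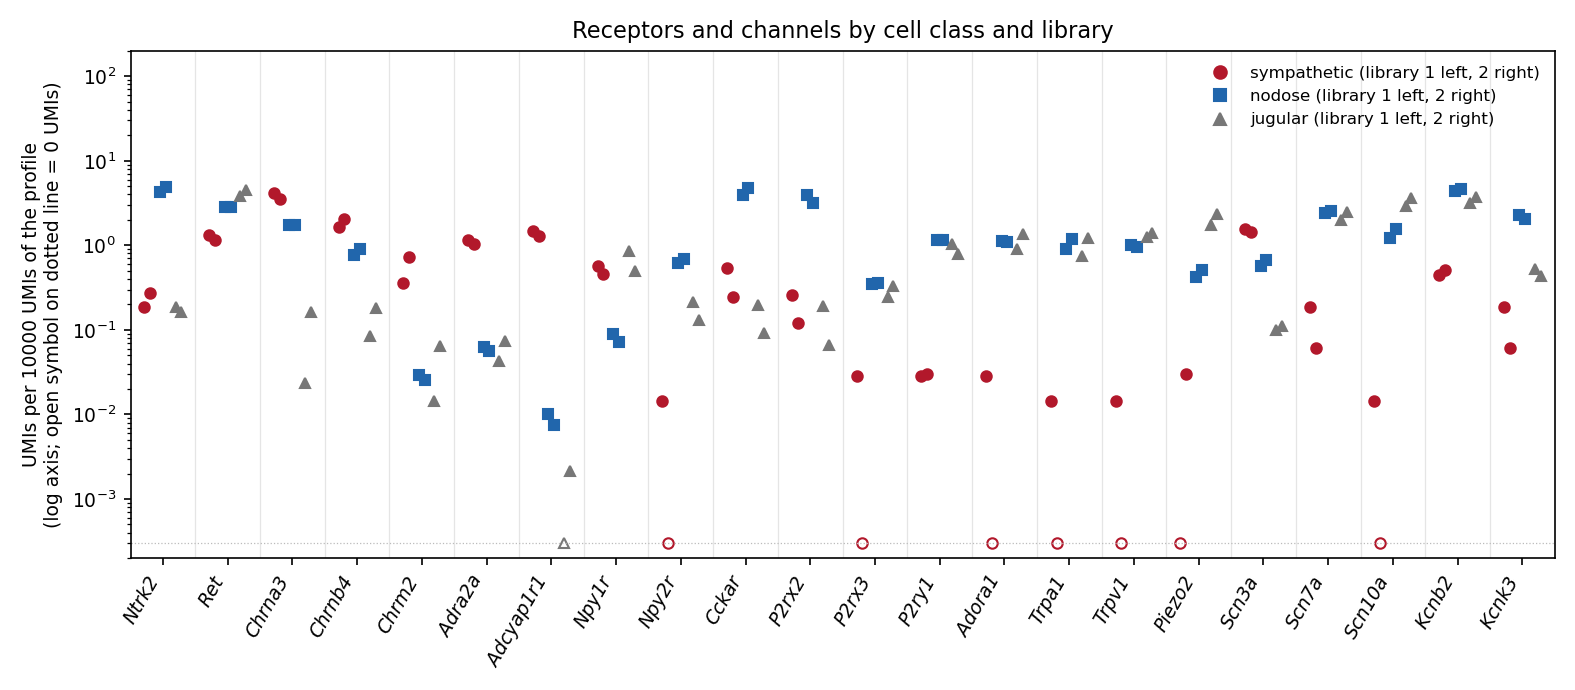
Levels of receptor and channel genes in sympathetic (red circles), nodose (blue squares) and jugular neurons (grey triangles), 1 symbol for each library, in UMIs per 10000 UMIs on a log axis, with open symbols for 0 UMIs. Red symbols lie above blue ones for Chrm2, Adra2a and Adcyap1r1 and below them for Ntrk2, Cckar, P2rx2, Trpa1, Trpv1 and Scn10a, where several sympathetic profiles held 0 or 1 UMI.

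Several transduction and sodium channels of sensory neurons had few or no UMIs in the 19 cells. Those with 1 UMI, and Tmem150c, entered the test through the nodose profiles alone, which fixed their direction. Trpv1, the heat and capsaicin channel, had 1 sympathetic UMI against 1.02 and 0.943 per 10000 in nodose neurons, a ratio of 99.4 (exact interval 17.8 to 3926). Trpa1, an irritant channel, had 1 UMI against 0.899 and 1.20 (-3.41, SE 0.25), and the mechanically gated Piezo2 had 1 UMI against 0.424 and 0.516 (-2.31, SE 0.26). Tmem150c was at 0.0287 and 0.182 against 0.828 and 0.971 (-2.39, SE 0.25). Of 11 genes tested in this list these 4 were lower and 1, Trpm2, was higher (1.56, SE 0.25). Scn10a, a sodium channel of nociceptors, had 1 sympathetic UMI against 1.21 and 1.56 per 10000, a ratio of 148 (exact interval 26.5 to 5841). Scn7a (-3.58) and Scn11a (-2.49) were lower too. Scn3a was the 1 of 13 tested sodium channel genes that was higher, at 1.55 and 1.42 against 0.570 and 0.669 (1.14, SE 0.20). With a pseudocount of 1 the calls of 1 of the 4 transduction channels and 3 of the 5 sodium channels remained, and neither Trpm2 (0.45) nor Scn3a (0.62) was called.

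Potassium channels had the most calls of any channel family, and theirs was also the longest channel list. Of 28 potassium and HCN channel genes tested 14 were lower and 2 higher, against 9.55% and 4.87% of all genes. The median log2 fold change of the 28 was -1.05. The lower members included the auxiliary subunit Kcnab1, at 0.0862 and 0.0606 per 10000 against 2.09 and 2.45 (-3.77, SE 0.23), and the background channel Kcnk3, at 0.187 and 0.0606 against 2.29 and 2.05 (-3.40, SE 0.22). Kcnb2 (-3.00), Kcnk2 (-2.67, or -2.00 and -3.33 in the libraries taken alone) and Kcna2 (-2.43) were also lower. Kcnq5, a member of the M-current family, was higher at 0.330 and 0.273 against 0.0295 and 0.0217 (1.67, SE 0.26), and Kcnh1 at 0.574 and 0.3334 against 0.0512 and 0.0454 (1.87, SE 0.26). With a pseudocount of 1 the calls of 4 of the 14 and of neither higher gene remained. Of 11 calcium channel genes tested 4 were lower, Cacna1e, Cacna1c, Cacna1h and Cacnb4, and 0 higher, and with a pseudocount of 1 none of the 4 was called (with 0.5, Cacnb4 alone). Cacna1b, the N-type channel, was at 2.66 and 1.88 against 2.44 and 1.84 and was not called.

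Cytoskeletal genes differed less. Prph, the intermediate filament of peripheral neurons, was at 37.7 and 16.8 per 10000 against 26.5 and 17.0, and the classes overlapped (0.25, SE 0.15; adjusted p = 0.198 by limma). The neurofilament Nefl was lower, at 6.09 and 5.36 against 17.2 and 19.1 (-1.65, SE 0.15), as was Nefm, at 3.17 and 3.09 against 6.92 and 7.62 (-1.19, SE 0.16), which was not called without the cells rich in glial transcripts (-0.97). Ina, the neurofilament alpha-internexin, was higher at 2.04 and 2.79 against 0.446 and 0.440 (2.19, SE 0.20). Of 10 genes tested these 3 were called. Of 89 ribosomal protein genes tested 0 were called, with a median log2 fold change of 0.11. Limma gave 6 of them an adjusted p under 0.05 in the higher and 1 in the lower direction, 15 had an unadjusted p under 0.05, and limma-voom called 0.

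Immediate early genes can respond to dissociation and to neuronal activity. Of 14 genes tested 6 were lower and 0 higher, but 0 of the 6 calls remained without the filter on low levels, with limma-voom or after thinning, and 1 remained without the library block. Fos was at 2.83 and 0.758 per 10000 in sympathetic and 3.38 and 4.27 in nodose neurons, a log2 fold change of -0.25 in library 1 and -2.35 in library 2. Atf3, also a marker of nerve injury, was at 0.675 and 0.152 against 1.05 and 1.33, or -0.57 and -2.50. Junb was at 1.64 and 0.364 against 1.67 and 1.76, or -0.02 and -2.01. The low sympathetic profile was that of library 2 in each case. Mitochondrial transcripts had 3 lower members of 12 tested, of which mt-Nd5, at 5.69 and 7.85 against 17.9 and 21.6 (-1.54, SE 0.15), was the 1 called without the library block, and mt-Atp8, at 0.660 and 3.70 against 2.34 and 5.34, overlapped between the classes.

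Among genes outside the lists, Gucy1a3, a subunit of the nitric oxide receptor, was at 1.55 and 2.94 per 10000 in sympathetic and 0.0116 and 0.0269 in nodose neurons (4.23, SE 0.24). Fstl1, a secreted glycoprotein, was at 0.675 and 0.394 against 20.3 and 19.3 (-5.01, SE 0.16), the second largest difference in the lower direction. It was also high in jugular neurons, at 16.9 and 16.4. Fgf13, which binds sodium channels, was at 0.115 and 0.152 against 5.59 and 6.33 (-4.70, SE 0.20) and stood at 8.70 and 9.14 in jugular neurons. Lypd1 was at 0.172 and 0 against 5.22 and 3.90 (-4.81, SE 0.21) and Dcdc2a at 0.0718 and 0.0303 against 3.17 and 4.11 (-4.63, SE 0.22), both with under 0.4 per 10000 in jugular neurons. F2r, the thrombin receptor, was at 0.230 and 0 against 2.87 and 2.46 (-3.92, SE 0.22), or -3.17 and -4.68 in the libraries taken alone. Tusc5 (-4.41) and BC048546 (-4.17) completed the 10 largest differences in the lower direction. Of the 10 genes with the largest difference in the higher direction 9 belonged to the catecholamine, autonomic factor or peptide lists, and of the 10 in the lower direction 3 belonged to a list. The lists were chosen with earlier results of these data known, so this overlap is not independent evidence.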

How the data were processed

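Single cells of 4 droplet libraries were measured with the 10x Genomics 3′ kit, version 2, per the labels' protocols, after digestion with papain and collagenase/dispase and a density gradient. The authors deposited natural log values of each UMI count scaled to 10000 per cell, for 17289 genes in 1825 cells, with a cell annotation that holds the clusters and the mitochondrial fraction. The submitters' processing notes name Cell Ranger 2.1.1, Seurat and mm10. How cells were filtered is not given in the sources used here. In the series text 1896 cells are stated, 71 more than the tables hold.

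UMIs were read back from the smallest step in each cell. All non-zero values (100%) came out whole within 0.01, and the annotated UMI total of a cell was above the total so obtained, by 5 UMIs in the median cell and 104 at most. UMIs were summed per library and class and tested in limma 3.58.1 (R 4.3.3) on log2(UMIs per 10000 + 0.1), with a trended prior and the library as a block, because both classes came from the same suspension. Genes entered the test above 0.2 per 10000 in at least 2 of 4 profiles. No per-sample column was left unmapped. Python 3.11.15 was used for the sums, shares and figures.

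Genes named in the text are fixed genes, the 10 with the largest fold change in each direction, and up to 5 genes of each list in each direction by adjusted p, with others of the lists given where stated. Some list members enter the counts and medians but are not reported here by name. Members and lists were chosen with earlier results of these data known. The procedure was tested on simulated data for this comparison (6482 genes, 200 of them changed, dispersion 0.02). It called 100% of 4-fold and 36% of 2-fold changes, with 2 false calls. Recovery was not measured separately for genes close to the filter on low levels, nor with added differences between libraries. These figures are therefore no guide to how reliable the calls of low genes are. Intervals are exact Clopper-Pearson at 95%, and a class at 0 is set against 3 UMIs. Both cover counting error only. No doublet caller was run. Gene positions are those of GENCODE M21 on mm10. Alternatives were other pseudocounts, filters, scalings (TMM from its formula, median centring), limma-voom, no block, averaging or thinning cells, jugular profiles added, cells of highest depth or rich in glial transcripts left out, and each library alone.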

Additional observations from a re-analysis of the deposited data

How the results depend on the processing

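Of 968 called genes (327 higher, 641 lower in sympathetic neurons; 119 calls in the gene lists), a pseudocount of 1 left 157 (75 and 82; 48 in the lists) and one of 0.5 left 323 (134 and 189; 72 in the lists), since a larger pseudocount shrinks the fold of low genes by construction. A minimum of 1 UMI per 10000 gave 336 (142 and 194; 65 in the lists), with fewer genes tested. Without the library block that pairs the classes there were 892 (311 and 581; 111 in the lists). In 1 library alone, with no test, 815 to 874 genes passed the fold threshold (283 to 293 higher, 532 to 581 lower, 111 to 116 in the lists). Counts under the other settings stayed within 1.5 times: 912 with no filter, 925 with cells averaged, 969 with TMM, 940 with median centring, 1145 with limma-voom, 962 with jugular profiles, 959 without the deepest cells, 671 after thinning, and 996 without the cells rich in glial transcripts, which was chosen after the data were seen. Of 110 called named genes none changed direction in a tested alternative or in either library alone, while Prph, not called, was at 0.51 and -0.01 in the libraries taken alone. Of the 110, 52 kept their call in all 13 tested alternatives. With a pseudocount of 1, 56 lost it, and with 0.5, 33. Beside the genes given with the results, Fosb (-0.67 and -1.96) and Egr1 (-0.48 and -1.84) moved by over 1.5 times when 1 library was left out. With 19 sympathetic cells in 2 libraries, levels under about 3 UMIs per profile could not be told from 0.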
